A study of Mus musculus with 12 samples.

Results

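Blood-brain barrier transporters and receptors, 32 genes in all, were followed in small vessel fragments from the brains of mice that lacked Notch3 and of littermate controls. The genes were taken from a list of known carriers, pumps and receptors of brain endothelium, not by a cut on a measured value. The list was drawn up with earlier results of these data known. A gene with several probe sets was represented by its brightest 1, judged by the mean of all 12 arrays. All 32 genes were on the array and all 32 passed the filter on dim probe sets, among 11716 genes tested. Each array measured the RNA of 1 region of 1 mouse on an Affymetrix whole-genome mouse chip. The 4 groups of 3 arrays were Notch3 knockout cerebral, control cerebral, Notch3 knockout cerebellar and control cerebellar. All 6 mice were on the C57BL/6 strain and 2 months old, and the controls are labelled wildtype. The labels give no driver or cell type for the deletion, nor its place within Notch3.

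The endothelial cells of brain vessels are sealed by tight junctions, so nutrients cross them through carriers and receptors. Glucose enters through Slc2a1 (GLUT1), lactate and ketone bodies through Slc16a1 (MCT1), and large neutral amino acids through the pair Slc7a5 and Slc3a2. Pumps of the ABC family return drugs and other lipophilic compounds to the blood, and the transferrin receptor Tfrc brings in iron. Notch3 is a receptor of the mural cells, the smooth muscle cells and pericytes that wrap these vessels and whose presence is known to shape the barrier.

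Notch3 read 2.48 to 3.58 in knockout arrays, against 10.84 to 12.02 in control arrays, on the log2 scale of the deposited values, whose median over all probe sets was 3.27. Array medians lay between 3.240 and 3.302. Of 12 endothelial markers 11 were tested, and 0 of them differed between genotypes or regions in any of the 7 comparisons. The summed level of these markers was 17.02 to 17.06 in knockout cerebral and 16.997 to 17.024 in control cerebral arrays, and 16.94 to 17.16 in knockout cerebellar and 16.97 to 16.99 in control cerebellar arrays (log2). Mural markers were lower in knockouts: 6 of 12 fell in cerebral and 5 of 12 in cerebellar vessels. Of all genes 6.38% differed by genotype in cerebral and 4.22% in cerebellar vessels, in either direction. Markers of other cell types differed between regions in both directions. On the difference within each mouse, 8 of 9 choroid plexus markers, 5 of 7 fibroblast markers and 6 of 12 mural markers were higher in cerebellar vessels, and 7 of 9 microglia markers were lower. Over all genes 11.6% were higher and 9.68% lower. Of 9 astrocyte markers 3 were higher and 2 lower, and of 5 oligodendrocyte markers 1 was higher and 1 lower. Of 9 arterial endothelial markers Gja4 (0.45) and Gkn3 (0.24) were higher. Of 7 venous endothelial markers Ackr1 (-0.68) and Lcn2 (-0.55) were lower (log2).

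The first question was whether barrier transport genes changed in vessels without Notch3. In cerebral vessels 0 of 32 genes were called by limma (adjusted p under 0.05 over all genes tested), where 6.38% of all genes were. At an unadjusted p under 0.05 there were 4 of 32 (12.5%), against 20.6% of all genes. In cerebellar vessels 1 of 32 was called (4.22% of all genes), Tfrc, which was higher (1.06%). There were 7 of 32 (21.9%) at an unadjusted p under 0.05, against 16.8% of all genes. With each mouse's regions averaged, 0 of 32 were called, where 4.03% of all genes were. At an unadjusted p under 0.05 there were 4 of 32, against 19.7% of all genes. The median log2 difference, knockout minus control, was 0.00 over the 32 genes in cerebral and 0.07 in cerebellar vessels, beside -0.01 and 0.01 over all genes. The third control cerebellar array had the lowest median (12.95) and mean (12.43) of the 32 genes among the 12 arrays. The next lowest were 13.03 and 12.53, both in the second knockout cerebellar array. Over all genes tested its median, 9.22, lay within the range of the other arrays. That array enters every cerebellar control mean. Groups did not overlap for 9 of 32 genes in cerebral vessels (24.4% of all genes) and for 5 of 32 in cerebellar vessels (22.1%).

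How large a change these arrays could have missed is given by the 95% intervals of the test by group means. That test counts both arrays of a mouse as independent in its spread, a limit of these intervals. In cerebral vessels the interval of the knockout difference stayed within 0.5 log2 of 0 for 26 of 32 genes, and in cerebellar vessels for 24 of 32. Over all genes these shares were 70.3% and 71.6%. For 32 of 32 genes the interval stayed within 1 log2 in both regions. The bound farthest from 0 belonged to Slco2a1, a prostaglandin carrier, at 0.98 in cerebral and 0.93 in cerebellar vessels.

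**Figure D1:**
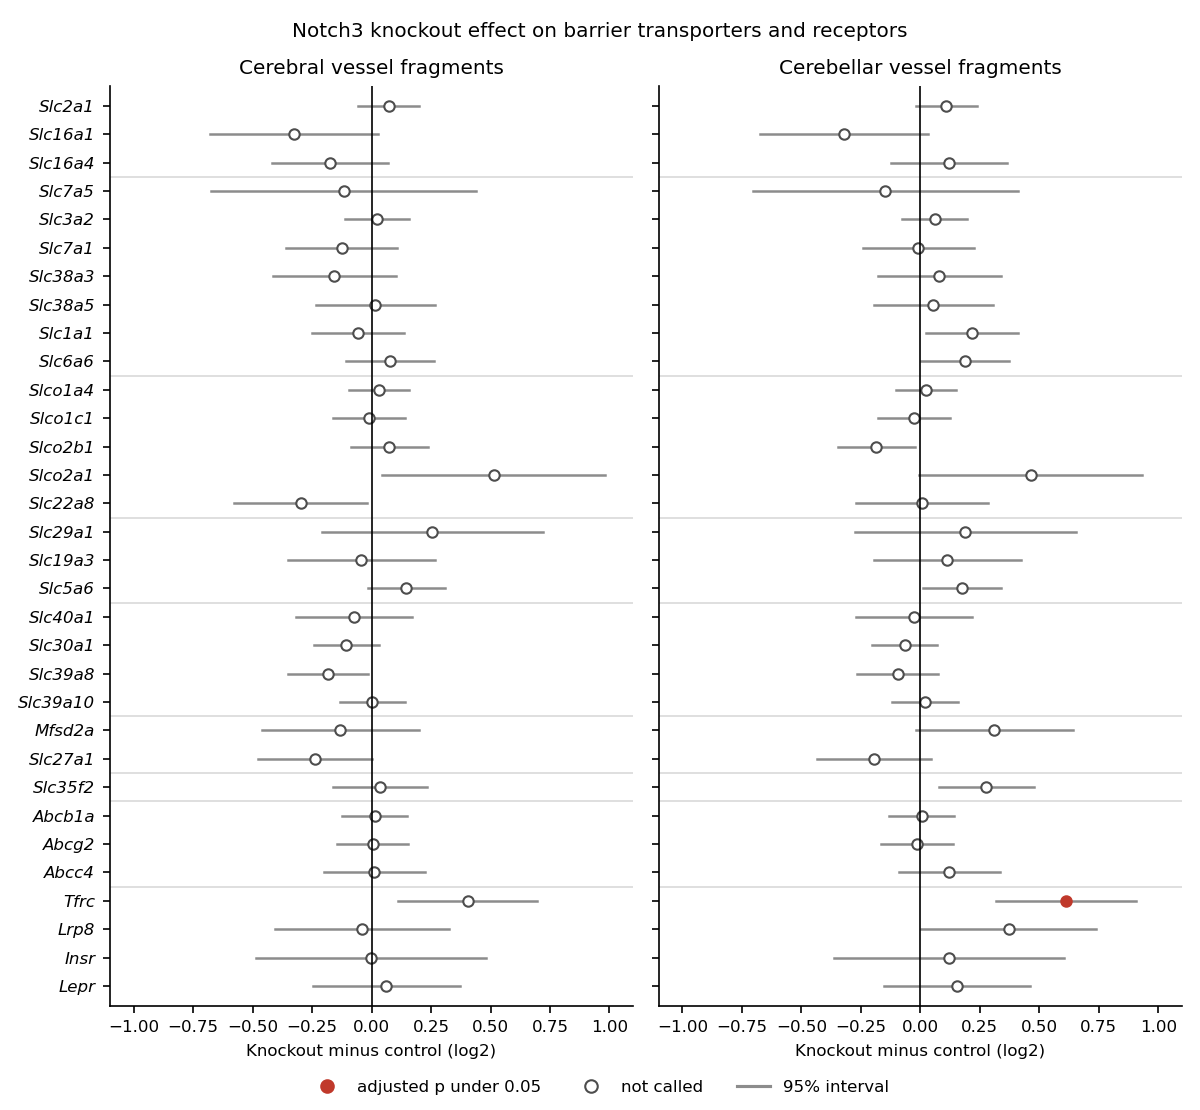
Log2 difference between Notch3 knockout and control for each of the 32 genes (rows, grouped by role), in cerebral (left) and cerebellar vessels (right). Points are limma estimates from 3 arrays per group, lines are 95% intervals, and the filled point marks Tfrc in cerebellar vessels (0.61), the 1 gene with an adjusted p under 0.05.

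**Figure D2:**
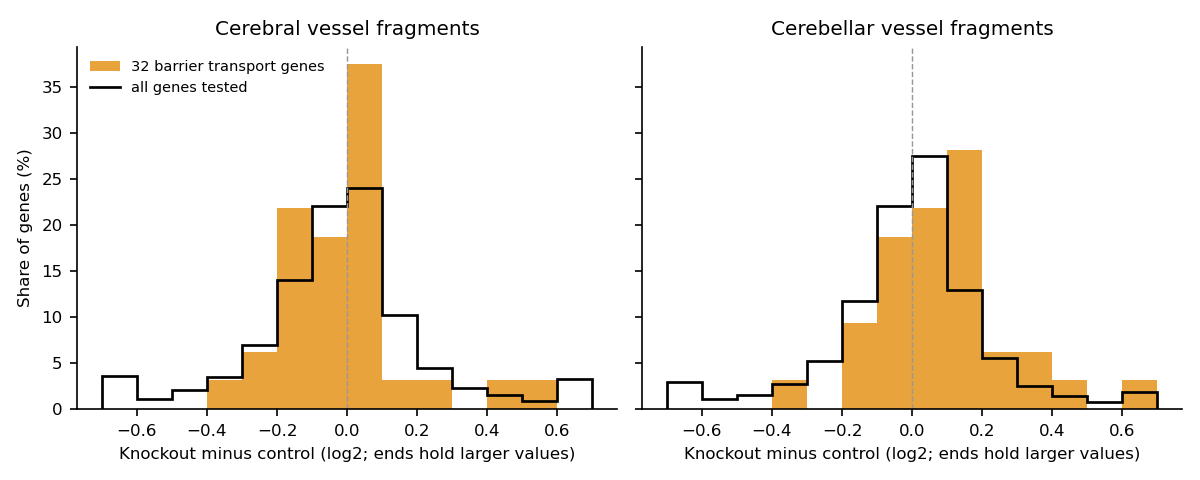
Share of genes (%) by log2 difference, knockout minus control, in steps of 0.1. Filled bars are the 32 barrier transport genes and the line is all 11716 genes tested. Both centre near 0, with medians of 0.00 and -0.01 in cerebral and 0.07 and 0.01 in cerebellar vessels.

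No sugar or monocarboxylate carrier was called in knockouts. The glucose carrier Slc2a1 read 15.99, 16.06 and 16.00 in knockout cerebral arrays, against 15.94, 15.99 and 15.91 in control cerebral arrays. In cerebellar vessels it read 16.05, 15.97 and 16.04 in knockouts, against 15.93, 15.98 and 15.81 in controls. The 3 knockout cerebral arrays lay just above the 3 controls, and the cerebellar groups overlapped. The differences were 0.07 (SE 0.06, adjusted p = 0.537) and 0.11 (SE 0.06, adjusted p = 0.390), and its other probe sets gave 0.08 and 0.22 in cerebral and 0.12 and 0.28 in cerebellar vessels, also not called. These readings lie close to 16.291, the highest value in the table, and the deposited table carries no saturation flags. Slc16a4, a monocarboxylate carrier family member, ranged over 10.33 to 10.81 in the 12 arrays.

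Slc16a1 had lower means in knockouts without being called. It read 14.39, 14.17 and 14.59 in knockout cerebral arrays, against 14.75, 14.59 and 14.79 in control cerebral arrays. The cerebral groups just failed to overlap, at 14.585 as the highest knockout and 14.589 as the lowest control. The log2 difference was -0.33 (SE 0.16, adjusted p = 0.280) in cerebral and -0.32 (SE 0.16, adjusted p = 0.347) in cerebellar vessels, where the groups overlapped.

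Among amino acid carriers, Slc7a5 differed between mice far more than between groups. It read 12.84, 13.35 and 13.27 in knockout mice 1, 2 and 3 (cerebral), against 13.50, 13.51 and 12.81 in control mice 1, 2 and 3. The cerebellar vessels of the same mice read 12.73, 13.25 and 13.21 in knockouts, against 13.53, 13.32 and 12.78 in controls. Knockout mouse 1 and control mouse 3 were low in both regions. The SD of mouse means within genotype was 0.339, against a median of 0.102 over all genes, while the SD of its region difference was 0.0842. The knockout difference was -0.12 (SE 0.25) in cerebral and -0.15 (SE 0.25) in cerebellar vessels, with 95% intervals of -0.67 to 0.44 and -0.70 to 0.41. Slc3a2, the heavy chain that pairs with Slc7a5, spanned only 13.40 to 13.60 over the 12 arrays. Slc7a1, a cationic amino acid carrier, and the glutamine carriers Slc38a3 and Slc38a5 had knockout differences between -0.16 and 0.08 in both regions on their brightest probe sets, with adjusted p of 0.509 or more. A second probe set of Slc7a1 gave -0.29 (adjusted p = 0.344) in cerebral and -0.14 (adjusted p = 0.741) in cerebellar vessels. The glutamate carrier Slc1a1 and the taurine carrier Slc6a6 differed more in cerebellar vessels, without being called. Slc1a1 was at -0.06 (SE 0.09) in cerebral and 0.22 (SE 0.09, adjusted p = 0.233) in cerebellar vessels, where all 3 knockout arrays lay above the controls. Slc6a6 was at 0.08 (SE 0.08) and 0.19 (SE 0.08, adjusted p = 0.291), with overlapping groups. Its next brightest probe set gave 0.40 (adjusted p = 0.0520) and 0.27 (adjusted p = 0.211), and its dimmest tested probe set -0.31 and -0.29, with no call.

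Slco1a4, a carrier of organic anions, and Slco1c1, a carrier of thyroid hormone, had narrow ranges over the arrays. Slco1a4 read 14.68, 14.72 and 14.73 in knockout cerebral arrays, against 14.69, 14.65 and 14.71 in control cerebral arrays. In cerebellar vessels it read 14.88, 14.69 and 14.76 in knockouts, against 14.80, 14.73 and 14.73 in controls, and the groups overlapped in both regions. Slco1c1 spanned 14.59 to 14.78 over all 12 arrays, and its knockout difference was -0.01 (SE 0.07) in cerebral and -0.03 (SE 0.07) in cerebellar vessels. Slco2a1 had the largest cerebral difference among the 32 genes and was not called. It read 9.85, 9.56 and 9.99 in knockout cerebral arrays, against 9.43, 9.46 and 8.97 in control cerebral arrays. All 3 knockout arrays lay above the controls, at 0.51 (SE 0.21, adjusted p = 0.2001), and in cerebellar vessels the groups overlapped at 0.46 (SE 0.21, adjusted p = 0.303). Slc22a8, the organic anion transporter OAT3, was at -0.30 (SE 0.12, adjusted p = 0.207) in cerebral and 0.01 (SE 0.12) in cerebellar vessels. The test of that difference between regions, 0.31, gave an SE of 0.18 by group means (adjusted p = 0.999) and 0.11 within mice (adjusted p = 0.425).

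The vitamin, nucleoside and metal carriers gave 0 calls in the knockout comparisons. Slc5a6, the carrier of biotin and pantothenate, was at 0.15 (SE 0.07) in cerebral and 0.18 (SE 0.07) in cerebellar vessels. The thiamine carrier Slc19a3 read 11.76, 11.80 and 11.998 in knockout cerebral arrays, against 11.95, 11.79 and 11.95 in control cerebral arrays. In cerebellar vessels it read 11.79, 11.54 and 11.90 in knockouts, against 11.89, 11.67 and 11.33 in controls. Both pairs of groups overlapped, at -0.04 and 0.11 (SE 0.14). The nucleoside carrier Slc29a1 was at 0.26 and 0.19 (SE 0.21). Slc29a1 is the only 1 of the 32 genes on chromosome 17, the chromosome of Notch3. Slc40a1, the iron exporter ferroportin, was at -0.07 in cerebral and -0.03 in cerebellar vessels (SE 0.11), and the zinc exporter Slc30a1 at -0.11 and -0.07 (SE 0.06). The metal importer Slc39a8 was at -0.18 (SE 0.08, adjusted p = 0.205) and -0.10. Dimmer tested probe sets gave -0.39 and -0.21 for Slc40a1, -0.19 and -0.15 for Slc30a1, and -0.20 and -0.54 for Slc39a8, none called. Slc39a10, a zinc importer, read 15.15, 15.10 and 15.09 in knockout cerebral arrays, against 15.15, 15.11 and 15.07 in control cerebral arrays. In cerebellar vessels it read 15.22, 15.12 and 15.14 in knockouts, against 15.24, 15.14 and 15.04 in controls. Its groups overlapped in both regions, and all 12 arrays lay within 0.199 log2.

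Mfsd2a, the carrier of docosahexaenoic acid that also restrains vesicle transport through brain endothelium, read 12.62, 12.59 and 12.84 in knockout cerebral arrays, against 12.94, 12.69 and 12.82 in control cerebral arrays. In cerebellar vessels it read 12.82, 12.60 and 12.85 in knockouts, against 12.72, 12.53 and 12.09 in controls. The groups overlapped in both regions, and the third control cerebellar array was the lowest of the 12. The knockout difference was -0.13 (SE 0.15) in cerebral and 0.31 (SE 0.15) in cerebellar vessels. The difference of these effects, 0.44, was not called by group means (SE 0.21, adjusted p = 0.999) or within mice (SE 0.16, adjusted p = 0.432). The fatty acid carrier Slc27a1 was at -0.24 (SE 0.11, adjusted p = 0.250) and -0.20 (SE 0.11, adjusted p = 0.414). Slc35f2, a solute carrier of the SLC35 family, read 11.79, 11.86 and 12.07 in knockout cerebellar arrays, against 11.70, 11.63 and 11.55 in control cerebellar arrays. In cerebral vessels it read 11.64, 11.72 and 11.92 in knockouts, against 11.70, 11.75 and 11.73 in controls. All 3 knockout arrays lay above the controls in cerebellar vessels, at 0.28 (SE 0.09, adjusted p = 0.131), and the groups overlapped in cerebral vessels, at 0.03.

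No efflux pump was called in knockouts, and their differences ran from -0.01 to 0.12. Abcb1a, the P-glycoprotein of mouse brain endothelium, read 14.87, 14.98 and 14.86 in knockout cerebral arrays, against 14.96, 14.85 and 14.87 in control cerebral arrays. In cerebellar vessels it read 14.99, 14.91 and 14.87 in knockouts, against 14.97, 14.93 and 14.85 in controls. All 12 arrays lay within 0.141 log2 and all groups overlapped. Its difference of 0.01 (SE 0.06) had a 95% interval of -0.12 to 0.15 in cerebral vessels, and -0.13 to 0.14 in cerebellar vessels. Abcg2, the breast cancer resistance protein, was at 0.00 (SE 0.07) and -0.01 (SE 0.07), and Abcc4, a pump of organic anions, at 0.01 (SE 0.10) and 0.12 (SE 0.10).

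Of the receptors, Tfrc was the 1 called gene. It read 13.28, 13.21 and 12.98 in knockout cerebellar arrays, against 12.82, 12.43 and 12.40 in control cerebellar arrays. In cerebral vessels it read 13.32, 13.11 and 13.16 in knockouts, against 12.95, 12.62 and 12.80 in controls. Every knockout array lay above every control array of its region. The log2 difference was 0.61 in cerebellar vessels (1.53-fold, SE 0.13, n = 3 arrays per group, adjusted p = 0.0281), and 0.40 in cerebral vessels (SE 0.13, adjusted p = 0.107). On mouse means it was 0.51 (SE 0.11, adjusted p = 0.0735), and the difference between the regions' effects, 0.21, was not called (SE 0.19 by group means, adjusted p = 0.999; SE 0.11 within mice, adjusted p = 0.581). In such bulk samples fewer cells of a type and less RNA per cell cannot be told apart.

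The Tfrc result rested on 1 probe set. A second, dimmer probe set that passed the filter went the other way without being called. It read 7.08, 6.37 and 7.07 in knockout cerebellar arrays, against 7.54, 7.17 and 6.57 in control cerebellar arrays. In cerebral vessels it read 7.23, 7.10 and 7.47 in knockouts, against 8.03, 7.42 and 7.59 in controls. Both pairs of groups overlapped, with differences of -0.25 (adjusted p = 0.729) and -0.41 (adjusted p = 0.454). The brightest of the array's own control probe sets for Tfrc, left out of the tests, also had lower means in knockouts. These were 6.17 against 6.28 in cerebellar and 6.40 against 6.79 in cerebral arrays. With the mean of both tested probe sets the Tfrc difference was 0.18 (adjusted p = 0.683) in cerebellar and -0.00 (adjusted p = 0.997) in cerebral vessels. The cerebellar call was also lost without control replicate 2 or 3 and without knockout replicate 1 or 2, with no filter, and with only the 6 cerebellar arrays in the fit. Over its 16 alternatives the adjusted p ran from 0.00411 to 0.683. Of 5 red blood cell markers, whose precursors also carry Tfrc, 4 were not among the genes tested. The fifth, Hba-a1, read 3.32 to 3.35 in all arrays, close to the median of 3.27. A part of red cell precursors in the Tfrc value was not tested. Mural markers moved with genotype as given above, and their part in the Tfrc value was not tested.

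The remaining receptors were not called. Lrp8, a receptor of reelin and apolipoprotein E, was at -0.04 in cerebral and 0.37 (SE 0.16, adjusted p = 0.292) in cerebellar vessels. Its second probe set gave -0.07 and 0.35. The insulin receptor Insr was at -0.00 and 0.12 (SE 0.22) and the leptin receptor Lepr at 0.06 and 0.15 (SE 0.14).

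**Figure D3:**
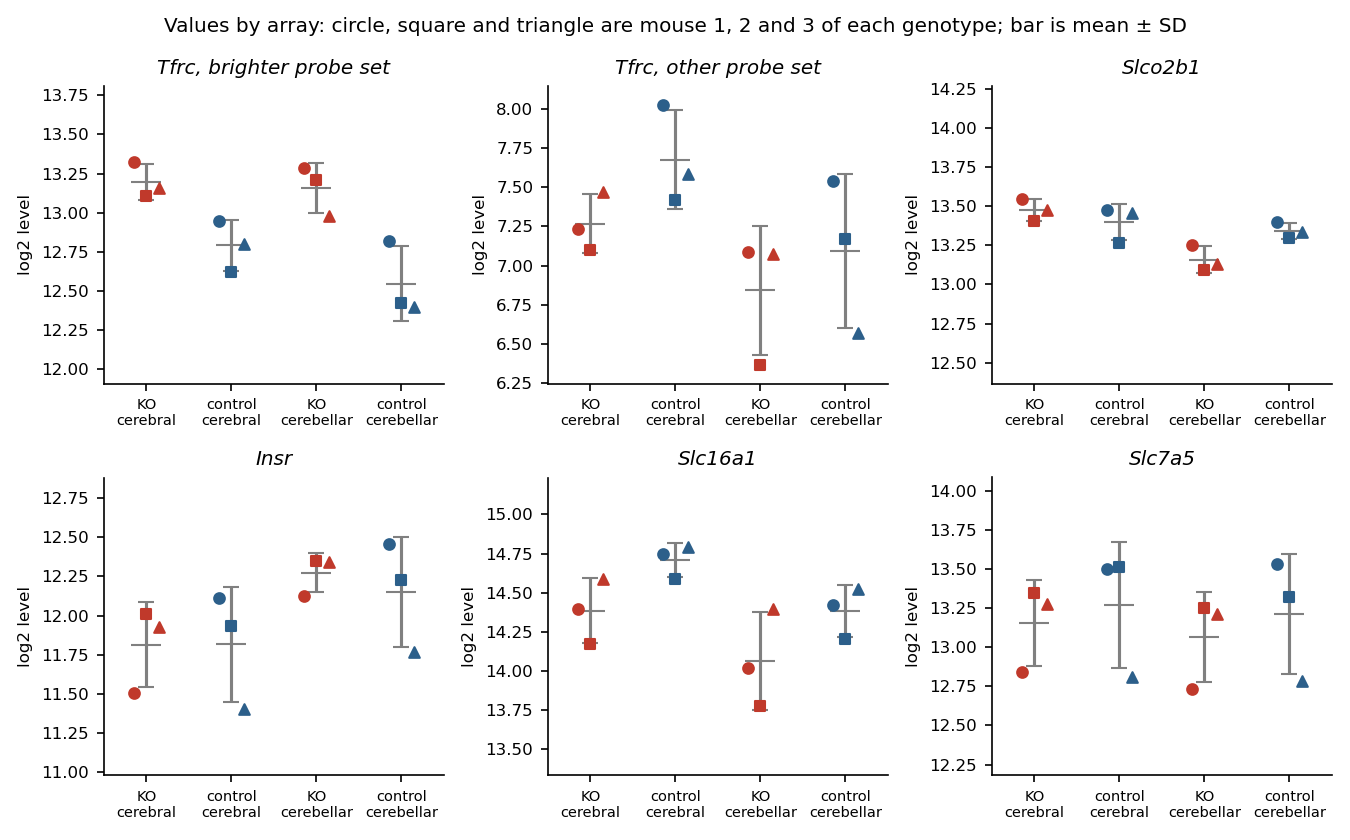
Log2 level in each of the 12 arrays for both Tfrc probe sets that passed the filter and for Slco2b1, Insr, Slc16a1 and Slc7a5. Symbols mark mouse 1, 2 and 3 of each genotype, and bars are mean and SD of 3 arrays; all panels span the same range, so heights can be compared. Tfrc is higher in knockouts on the brighter probe set alone, and Slc7a5 is low in knockout mouse 1 and control mouse 3 in both regions.

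The second question was how these genes differ between cerebellar and cerebral vessels. On the difference within each mouse, 7 of 32 genes (21.9%) were called, where 21.3% of all genes were. Of the 7, 3 were higher (11.6% of all genes) and 4 lower (9.68%) in cerebellar vessels. The median cerebellar minus cerebral difference was -0.02 over the 32 genes and -0.01 over all genes. For 5 of 32 genes all 6 mice differed in the same direction, which held for 25.1% of all genes. The test by group means, which does not use the mice, called 1 of 32 genes in knockouts (6.8% of all genes), which was lower (2.96%), and 0 of 32 in controls (2.29%). At an unadjusted p under 0.05 there were 4 of 32 in controls, against 15.2% of all genes.

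Insr and Slc16a1 had the largest mean differences over the 6 mice, in opposite directions. Insr read 12.13, 12.35 and 12.34 in cerebellar against 11.51, 12.01 and 11.93 in cerebral vessels of knockout mice 1, 2 and 3. Control mice read 12.46, 12.22 and 11.77 in cerebellar against 12.11, 11.93 and 11.40 in cerebral vessels. All 6 mice were higher in the cerebellar fragments, although the regions overlapped across mice. The mean difference was 0.40 (SE 0.05, n = 6 mice, adjusted p = 0.00181). For Slc16a1 the knockouts read 14.02, 13.78 and 14.40 in cerebellar against 14.39, 14.17 and 14.59 in cerebral vessels. Controls read 14.42, 14.20 and 14.52 in cerebellar against 14.75, 14.59 and 14.79 in cerebral vessels. All 6 mice were lower in the cerebellar fragments, by 0.19 to 0.40, and the mean difference was -0.32 (SE 0.04, adjusted p = 0.00301). Both calls held in 14 of 14 alternatives. Each gene had only 1 probe set that passed the filter, so averaging its probe sets could not alter its difference.

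Slco2b1, an organic anion carrier also found on microglia, was lower in cerebellar vessels of knockouts. It read 13.25, 13.09 and 13.13 in cerebellar against 13.54, 13.40 and 13.47 in cerebral arrays of knockouts. Controls read 13.40, 13.30 and 13.33 in cerebellar against 13.48, 13.27 and 13.46 in cerebral arrays. The knockout groups did not overlap and the control groups did. The difference was -0.32 in knockouts (SE 0.07, adjusted p = 0.0312), -0.06 in controls (SE 0.07, adjusted p = 0.788) and -0.19 over the 6 mice (SE 0.04, adjusted p = 0.0153). Its second probe set gave -0.42 in knockouts (adjusted p = 0.0356) and -0.11 in controls. The test of the difference between genotypes did not call it (-0.26), by group means (SE 0.10, adjusted p = 0.999) or within mice (SE 0.08, adjusted p = 0.357). The call in knockouts was lost without cerebral replicate 1 or 3 or cerebellar replicate 2 or 3 and with only the 6 knockout arrays, and that over the mice without control mouse 1 or knockout mouse 3. Microglia markers moved the same way. In knockouts 6 of 9 were lower in cerebellar vessels (2.96% of all genes). Their summed level was 15.85 to 15.95 in cerebellar against 16.41 to 16.87 in cerebral arrays (log2). In controls 0 of 9 were called (2.29% of all genes), at 15.58 to 15.86 in cerebellar against 15.79 to 16.25 in cerebral arrays. In cerebral vessels 2 of 9 were higher in knockouts than in controls (6.38% of all genes in either direction). The part of the microglia markers in the Slco2b1 value was not tested.

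The other 4 regional calls were small. Slc5a6 was higher in the cerebellar vessels of 6 of 6 mice, at 9.26, 9.04 and 9.12 in cerebellar against 8.96, 8.91 and 8.84 in cerebral arrays of knockouts. Controls read 8.86, 8.96 and 9.07 in cerebellar against 8.77, 8.73 and 8.78 in cerebral arrays, and the mean difference was 0.22 (SE 0.05, adjusted p = 0.0167). Regions did not overlap within either genotype. Slc1a1 read 12.39, 12.48 and 12.42 in cerebellar against 12.10, 12.25 and 12.10 in cerebral arrays of knockouts. In controls it read 12.33, 12.25 and 12.05 in cerebellar against 12.34, 12.18 and 12.10 in cerebral arrays. Its mean difference of 0.14 (SE 0.04, adjusted p = 0.0369) came with 4 of 6 mice in that direction, the 3 knockouts and 1 control. Its other tested probe sets gave 0.20 (adjusted p = 0.0893) and 0.28 (adjusted p = 0.0723), not called. Slc6a6 read 14.25, 13.98 and 14.13 in cerebellar against 14.28, 14.10 and 14.21 in cerebral arrays of knockouts. In controls it read 13.87, 13.93 and 14.003 in cerebellar against 14.05, 14.09 and 14.22 in cerebral arrays. It was lower in the cerebellar vessels of 6 of 6 mice, at -0.13 (SE 0.04, adjusted p = 0.0408). Its next brightest probe set gave -0.07 (adjusted p = 0.387) and its dimmest tested probe set -0.56 (adjusted p = 0.0616), not called. The glutamine carrier Slc38a5 was lower in 6 of 6 mice too, at -0.17 (SE 0.05, adjusted p = 0.0451), and the regions overlapped across mice. Its knockouts read 13.14, 12.93 and 13.03 in cerebellar against 13.19, 13.15 and 13.19 in cerebral arrays, and its controls 12.88, 12.81 and 13.24 against 13.05, 13.12 and 13.32.

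These 4 calls depended on single mice. Without control mouse 2, knockout mouse 1 or knockout mouse 3 the call of Slc5a6 was lost (adjusted p up to 0.0634 over its alternatives). Slc1a1 and Slc38a5 were lost without any 1 mouse except control mouse 3, and Slc6a6 without any 1 of the 6 mice. Leaving out knockout mouse 3 left 2 called genes of 32, Insr and Slc16a1, and leaving out control mouse 1 or 2 left 3. Without knockout mouse 2 there were 4. Without knockout mouse 1 there were also 4, of which Slc27a1 (0.23 over all mice, adjusted p = 0.0549) was gained. The markers of choroid plexus, fibroblasts, mural cells, microglia and arterial and venous endothelium that differed between regions are given above. The part of these markers in the regional values of the 32 genes was not tested. With the mouse as a random block, group means in knockouts called 3 genes, Slco2b1, Slc1a1 and Slc5a6, instead of 1.

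**Figure D4:**
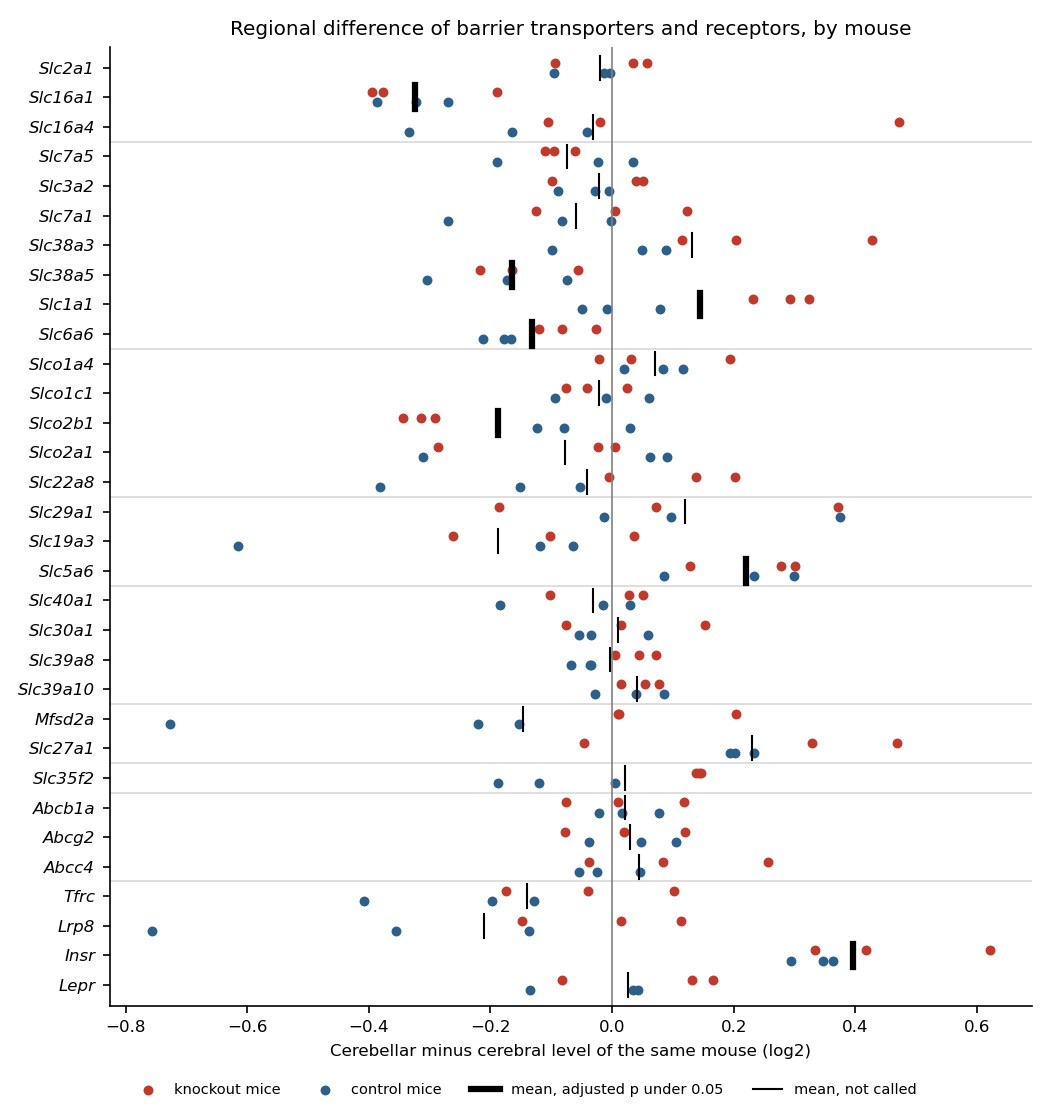
Cerebellar minus cerebral log2 level within each of the 6 mice for the 32 genes (rows, grouped by role), with knockout mice above control mice in each row. Vertical bars are means over the mice, thick where the adjusted p was under 0.05: 7 genes, with Insr at 0.40 and Slc16a1 at -0.32 farthest from 0.

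The third question was whether the knockout effect depended on region. By the test on group means, which does not use that both regions came from the same mice, 0 of 32 genes were called, where 5 of 11716 genes (0.0427%) were, and 2 of 32 had an unadjusted p under 0.05, against 4.66% of all genes. These were Slco2b1 (-0.26) and Slc1a1 (0.28, SE 0.12), both with an adjusted p of 0.999. The same differences were also tested within mice, a test added after the data were seen. It called 0 of 32 genes and 0.0341% of all genes, and 6 of 32 (18.8%) had an unadjusted p under 0.05, against 10.4% of all genes. Those 6 were Slc1a1, Slco2b1, Slc35f2, Slc22a8, Mfsd2a and Lrp8, with adjusted p of 0.329 to 0.464. Slc1a1, Slc35f2, Mfsd2a and Lrp8 had their lowest value of the 12 arrays in the third control cerebellar array, and Slco2b1 and Slc22a8 did not. Cerebellar minus cerebral differences of Slc1a1 were 0.29, 0.23 and 0.32 in knockout mice, against -0.01, 0.08 and -0.05 in control mice. These did not overlap, and the SE within mice was 0.08. For 8 of 32 genes the differences of knockout and control mice did not overlap, which held for 15.8% of all genes.

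Spread was much like that of other genes. The SD within groups had a median of 0.136 over the 32 genes and 0.128 over all genes, and the range over the 12 arrays a median of 0.488 and 0.516. A range under 1 log2 held for 90.6% of the 32 genes and 81.1% of all genes. The 3 genes with a wider range were Insr, Slco2a1 and Slc16a1.

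A list of 36 related transport genes outside the 32 had 31 tested members. In each region 1 of them rose and 1 fell in knockouts, where 6.38% of all genes were called in cerebral and 4.22% in cerebellar vessels. Slc9a3r2, a scaffold protein that binds membrane carriers, rose by 0.42 (SE 0.06, adjusted p = 0.00289) in cerebral and 0.57 (SE 0.06, adjusted p = 0.000430) in cerebellar vessels. The reduced folate carrier Slc19a1 fell by 0.48 (SE 0.09, adjusted p = 0.0116) and 0.39 (SE 0.09, adjusted p = 0.0368). Chromosomes were looked up for the 32 genes alone, so whether Slc9a3r2 or Slc19a1 lies near Notch3 was not examined. Between regions 14 of 31 were called on the difference within mice, where 21.3% of all genes were. Of these, 7 were higher (11.6% of all genes) and 7 lower (9.68%) in cerebellar vessels. The metal importer Slc39a14 rose by 0.76, the cation chloride carrier Slc12a2 by 0.55, Slc19a1 by 0.64 and the ascorbate carrier Slc23a2 by 0.57 in cerebellar relative to cerebral vessels. Slc7a7, an amino acid exchanger subunit, fell by 0.84 and the cholesterol exporter Abcg1 by 0.42. Choroid plexus, fibroblast, mural and microglia markers also differed between regions, as given above. Their part in the regional values of the related genes was not tested.

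Promoter sequence is shown for Tfrc, the gene called in knockouts, and for Slc16a1, a regional call that held in all alternatives; Insr, Slc7a5, Slc38a3, Slc6a6 and Slc40a1 had no entry in the table used. The windows run from 250 bases before to 50 bases after the first listed start, in RefSeq on GRCm38.p6, plus strand, at chr16:32608646-32608945 for Tfrc and chr3:104638414-104638713 for Slc16a1. Capitals mark ACGTG on either strand, the core of the hypoxia response element.
Tfrc: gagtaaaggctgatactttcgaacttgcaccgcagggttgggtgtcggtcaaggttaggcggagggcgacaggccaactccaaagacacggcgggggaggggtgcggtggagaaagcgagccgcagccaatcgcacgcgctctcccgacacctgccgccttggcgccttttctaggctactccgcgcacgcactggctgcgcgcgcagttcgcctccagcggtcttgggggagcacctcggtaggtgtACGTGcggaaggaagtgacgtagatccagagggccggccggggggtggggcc
Slc16a1: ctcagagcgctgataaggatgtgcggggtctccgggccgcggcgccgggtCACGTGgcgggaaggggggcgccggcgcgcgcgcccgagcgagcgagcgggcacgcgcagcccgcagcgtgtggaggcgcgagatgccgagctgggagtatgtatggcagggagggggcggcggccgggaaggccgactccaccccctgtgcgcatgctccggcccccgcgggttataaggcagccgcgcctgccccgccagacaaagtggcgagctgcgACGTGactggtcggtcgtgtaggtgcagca
Tfrc held 1 match and Slc16a1 held 3, of which 2 overlap in a palindrome on opposite strands. The hypoxia response core stood in 10 of 27 promoters of barrier genes (37%) and in 19.7% of all 27025 promoters. TGGGAA, the core bound by the Notch partner RBPJ, stood in 7 of 27 (25.9%), and in 25.5% of all. CTTTGA, the core of the TCF/LEF motif of Wnt signalling, stood in 8 of 27 (29.6%), and in 16.2% of all. All motifs were searched on both strands.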

How the data were processed

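Deposited log2 values, 1 for each probe set and array, were used unchanged; the authors computed them with GCRMA 2.32.0, per the submitters' processing notes. Of 45101 probe sets, 34958 named 1 gene in the platform annotation, 932 several and 9211 none; 64 control probe sets were left out. Probe sets entered the tests if they exceeded 3.27, the median of all values, on 3 or more of the 12 arrays. The lmFit and eBayes functions of limma 3.58.1 (R 4.3.3) gave two-sided tests, p-values were adjusted by Benjamini-Hochberg across 11716 genes, and the threshold was 0.05. Group means over 12 arrays left 8 residual degrees of freedom; means or differences per mouse left 4. The script was tested on simulated data. With 3 arrays a group, their number limits the precision.

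The replicate number within a genotype was taken as the mouse: the design text gives 3 mice per genotype with both regions measured, and the regions of a mouse deviated together (r of 0.371 to 0.705 across genes). Equal numbers across genotypes gave r of -0.166 to 0.259, and were not taken as pairs. In both genotypes 1 mouse lacked Xist and 2 carried it, in both of their arrays. Those without it were control mouse 3 and knockout mouse 2.

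The members, gene lists and tests were chosen with earlier results of these data known. All 32 members could be named. Values in every array were given for called members and for the brightest of each role group, which was Mfsd2a among the lipid carriers. Slc7a5 and Slco2a1 were added after their values were seen. The single probe set tests of Tfrc, Slc2a1, Slc6a6, Slc1a1, Slco2b1, Lrp8, Slc7a1, Slco2a1, Slc40a1, Slc30a1 and Slc39a8 were adjusted over all probe sets that passed the filter. They were also added after seeing the data. Related genes were named by smallest adjusted p, up to 6 in a comparison.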

Additional observations from a re-analysis of the deposited data

How the results depend on the processing

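Member calls were recomputed with other filters, probe set rules, scalings, variance models, weights and blocks and without each array or mouse. In cerebral knockout vessels the count of 0 became 2 (Slc16a1 lower, Tfrc higher) with the replicate block and stayed 0 otherwise. In cerebellar knockout vessels the count of 1 became 0 with no filter, with the mean of probe sets or with only the arrays compared, 2 with the replicate block, and 0 to 1 without single arrays. On mouse means the count of 0 became 1 with the filter at the 75th percentile or the replicate block, and 0 to 1 without single mice. Between regions, the count of 1 in knockouts became 0 with only the arrays compared, 3 with the replicate block, also 3 with mouse as the random replicate block, and 0 to 1 without single arrays. The 7 calls over all mice became 4 with the replicate block and 2 to 6 without single mice. They became 5 with arrays centred on medians (Slc1a1 and Slc6a6 lost) or a trended, robust variance (Slc38a5 and Slc6a6 lost), 6 with no filter (Slc38a5 lost), and 8 with array weights (Slc27a1 gained) or the mean of probe sets (Tfrc gained). The counts of 0 for regions in controls and for the difference of the knockout effect held in all alternatives run, the test within mice added later included. Since replicate numbers do not pair mice across genotypes, the replicate block carries no more weight than the other settings. No called difference of a member changed sign. No value rests on counts, so the limit is the number of arrays.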
